A study of Mus musculus with 56 samples.

Results

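The response of D164A/fl mammary tumor cells to TGFβ was measured by comparing 2 libraries of cells treated for 4 days with 2 ng/ml TGFβ with 2 libraries of untreated cells of the same experiment, which are 4 of the 56 libraries of the series. D164A/fl cells carry a β-catenin allele with the D164A substitution, which abrogates the binding of the transcriptional co-activators Bcl9 and Bcl9l, beside a floxed and still functional β-catenin allele. They came from thoracic mammary tumors of female FVB/N mice 12 weeks old in which the MMTV promoter, active in mammary epithelium, drives the polyoma middle T oncogene, so every group described here carries this transgene. Fibroblasts had been removed from the cultures by differential trypsinization. The 2 genotypes used for comparison were fl/fl cells, with floxed β-catenin alleles only, and D164A/- cells, which were made with an adenovirus carrying Cre so that the D164A allele is the only β-catenin allele left. Both were treated at the same dose for the same time with their own untreated cells, 2 libraries a group. A further 4 libraries of D164A/fl cells, untreated or given 100 ng/ml Wnt3a for 3 days, belong to a separate experiment. Only the values of the untreated ones are set beside the response below. All 4, and the libraries of that experiment from the other 2 genotypes, enter the main fit. Its filter and its shared estimate of the spread cover 24 libraries. Whether the libraries of a genotype came from 1 or several lines is not given in the sources used here, so genotype and cell line cannot be told apart. The labels call the libraries of a group biological duplicates without naming their cultures, and the p-values therefore measure only the spread between these libraries.

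TGFβ binds a pair of serine/threonine kinase receptors, which phosphorylate Smad2 and Smad3, and these enter the nucleus with Smad4 to switch target genes on or off. In mammary tumor cells, prolonged TGFβ is known for an epithelial-mesenchymal transition (EMT), in which cells loosen their junctions, deposit matrix and secrete matrix-degrading enzymes. β-catenin takes part in both states, as a partner of E-cadherin at adherens junctions and as a co-activator with Tcf/Lef factors in the nucleus, where Bcl9 and Bcl9l link it to Pygopus proteins.

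The 4 libraries held 24996516 to 28260885 reads assigned to genes, so that 1 read was worth 0.0322 to 0.0388 CPM, the counts of each library scaled to a common total. Replicates differed by more than sampling noise, with a chi-square of 39.8 per gene between the treated libraries and 43.9 between the untreated ones. Among the 12868 genes tested, the response rose with the GC content of the transcript (Spearman rho 0.37 across 12318 genes, which share libraries and are not independent). The same correlation was 0.30 in D164A/- cells and 0.00056 in fl/fl cells. Counts with the GC trend removed from every library are given beside the main ones, and the part of the trend in the calls was not tested further.

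The epithelial identity of the cells was visible in their markers. Epcam, an epithelial adhesion molecule, was at 378 and 444 CPM in untreated and 513 and 581 CPM in treated cells. Krt18, a simple-epithelial keratin, was at 1272 and 1180 CPM without TGFβ and 744 and 919 CPM with it. The 9 epithelial markers summed to 3373 and 3726 CPM in untreated and 3367 and 4252 CPM in treated cells, and none of them was called, although Krt19 was at 0.0643 CPM or less throughout. The 11 fibroblast markers summed to 62.0 to 78.4 CPM in the 4 libraries, nearly all of it Pdgfra, which was at 55.8 to 72.2 CPM, and 1 of the 5 tested, Col1a1, was called higher. The defining matrix genes of fibroblasts were at or near background, with Col3a1 and Lum at 0 reads in all 4 libraries, which allows up to 0.0965 to 0.117 CPM, and Dcn at 0.272 CPM or less. The 9 leukocyte markers in the table summed to 2.72 to 4.63 CPM, with Ptprc at 0.0354 CPM or less in each library. The 7 endothelial markers summed to 0.260 to 0.815 CPM and the 5 adipocyte markers to 0.322 CPM or less. Of the 10 luminal genes tested none was called, and of the 7 basal genes tested only Mylk was. In these cultures fewer cells of a type and less RNA per cell cannot be told apart.

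A gene was called when the adjusted p of limma was at most 0.05 and the difference in mean log2(CPM + 1) was at least 1, and the log2 differences below are on this scale, which understates the change of genes with few reads. By this rule 434 genes were higher with TGFβ, 3.37% of those tested, and 155 were lower, 1.20% of those tested. Higher genes made up 73.7% of the calls. The shares of all tested genes, 3.37% higher and 1.20% lower, are the background to every count of list members in this response. With the GC trend removed, 426 genes were higher and 284 lower, so that the higher share was 60.0%, and 331 of the higher and 137 of the lower genes were called both ways. The median log2 difference over all tested genes was 0.04. In all 589 called genes the treated values lay outside the untreated ones, as did those of 36.4% of all tested genes upward and 28.8% downward. The counts depended on single libraries: they were 144 higher and 72 lower without untreated replicate 1, 248 and 65 without treated replicate 1, and 163 and 68 without treated replicate 2. A core of 126 higher and 38 lower genes was called whichever library was left out. With the replicate number as a block there were 696 higher and 481 lower genes.

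**Figure D1:**
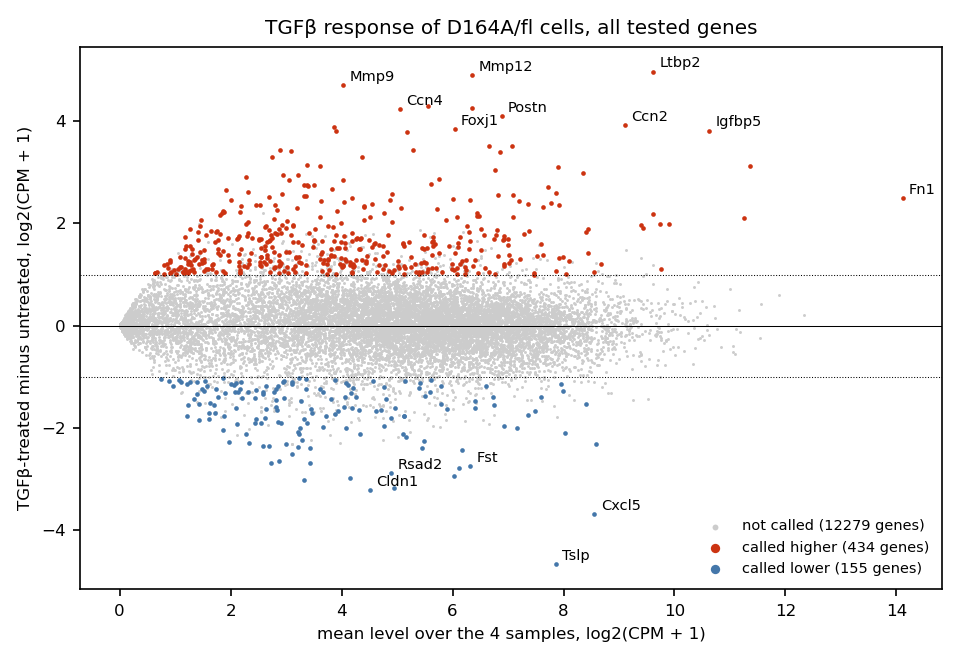
Each point is 1 of the 12868 tested genes. The x axis gives its mean level over the 4 D164A/fl libraries and the y axis the treated minus untreated difference, both as log2(CPM + 1), with dotted lines at differences of -1 and 1. The 434 genes called higher outnumber the 155 called lower, and Fn1 is both called and at the top of the range of levels.

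Untreated D164A/fl cells harvested at 3 days in the Wnt3a experiment gave a second view of the baseline, although day and experiment cannot be told apart in them. Of the 434 higher genes, 253 (58.3%) also had treated values above all 4 untreated libraries of the 2 experiments. Of the 155 lower genes, 67 (43.2%) had treated values below all 4. The shares of all tested genes were 10.7% and 7.10%. They are not a like base, since every called gene already lay outside the 2 untreated libraries of its own experiment. Of 4677 tested genes above those 2, 1379 were above all 4. Of 3703 tested genes below those 2, 914 were below all 4. For the remaining called genes the treated level was not outside the 4 untreated ones.

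The largest increase among genes reaching 10 CPM was that of Ltbp2, which encodes a latent TGFβ binding protein of elastic fibers (Entrez gene 16997, chromosome 12, 84783212 to 84876558, GRCm38). It stood at 37.3 and 60.9 CPM in untreated and 1493 and 1551 CPM in treated cells, a log2 difference of 4.97 ± 0.33 (SE, n = 2 a group, limma adjusted p = 5.3e-07). The 3-day untreated cells were in between, at 266 and 374 CPM. Ccn2 (CTGF), a matricellular target of Smads, went from 50.7 and 87.9 CPM to 1083 and 977 CPM (log2 difference 3.92, limma adjusted p = 1.7e-05), and its treated values were far above every untreated one. Ctla2a, a cysteine protease inhibitor, went from 3.29 and 3.86 CPM to 95.7 and 82.2 CPM, and Myo7a, an unconventional myosin, from 0.778 and 0.933 CPM to 26.9 and 25.7 CPM. Dgkk, a diacylglycerol kinase, went from 7.39 and 6.85 CPM to 170 and 138 CPM (4.25 ± 0.62, limma adjusted p = 6.0e-04), and Mab21l4 from 0.849 and 1.03 CPM to 33.6 and 20.4 CPM (3.81). These 4 genes stayed called in every alternative and stood above all 4 untreated libraries. Foxj1, the master regulator of motile cilia, rose from 4.00 and 13.4 CPM to 122 and 120 CPM (3.84, limma adjusted p = 0.0011), while 3-day untreated cells had 28.5 and 74.2 CPM. Igfbp5, an insulin-like growth factor binding protein, rose from 122 and 332 CPM to 2283 and 3562 CPM, but 3-day untreated cells had 4234 and 5477 CPM. Its treated level was therefore above one untreated pair and below the other.

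**Figure D2:**
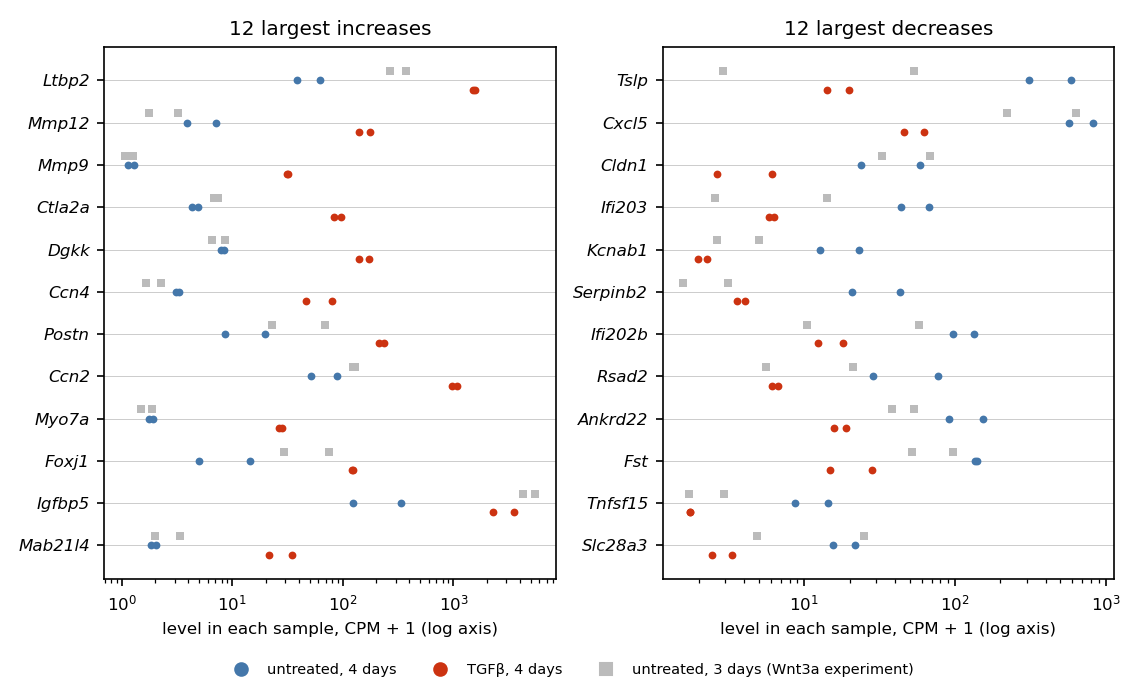
The 12 largest increases (left) and decreases (right) among called genes reaching 10 CPM in a group, ordered by log2 difference. Each point is 1 library on a log axis of CPM + 1, with blue for untreated and red for TGFβ-treated cells at 4 days and grey squares for untreated cells of the 3-day experiment, 2 libraries each. Red and blue points are apart in every row, whereas for some genes, such as Igfbp5 and Tslp, grey squares lie on or beyond the treated side.

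Of 29 early and feedback targets of TGFβ/Smad signaling, all of them tested, 7 were called higher and 1 lower, beside 3.37% and 1.20% of all tested genes, with a median log2 difference of 0.75 against 0.04 over all tested genes. The inhibitory Smad7, which closes the feedback loop, stood at 68.9 and 57.7 CPM in untreated and 206 and 174 CPM in treated cells (1.57 ± 0.23, limma adjusted p = 6.0e-04). It kept its call with each library left out. Pmepa1, a membrane protein that sequesters receptor-activated Smads, went from 256 and 294 CPM to 1109 and 1041 CPM (1.96, limma adjusted p = 0.0059). Ldlrad4, another negative regulator of Smad phosphorylation, went from 6.97 and 9.17 CPM to 29.8 and 27.3 CPM. In these 3 genes both treated libraries exceeded all 4 untreated ones. Cdkn2b, the cyclin-dependent kinase inhibitor p15, rose from 21.7 and 26.9 CPM to 71.3 and 75.8 CPM, a call that edgeR did not make (adjusted p = 0.15) and that was lost when any one library was left out. Cdkn1a, the related inhibitor p21, was the one member called lower, from 84.4 and 66.7 CPM to 26.6 and 39.4 CPM, and 3-day untreated cells had 32.4 and 23.9 CPM. The Cdkn1a call too was lost when any one library was left out. Skil, a Smad co-repressor, was at 227 to 283 CPM in all 4 libraries and was not called, and Tgfbi was at 0.194 CPM or less, which is background. With a library left out, the list held 4 or 5 higher genes and no lower one.

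Of 24 genes listed as ligands, receptors, Smads and latent binding proteins, 1 was called higher and 2 lower, beside 3.37% and 1.20% of all tested genes. The list also holds related genes such as Fst and Nrep. Ltbp2, the latent TGFβ binding protein with the largest increase, was counted among the early targets above and not here. Tgfb2 fell from 42.1 and 35.1 CPM to 13.0 and 10.4 CPM (a log2 difference of -1.65, limma adjusted p = 1.5e-04) and lay below all 4 untreated libraries. Fst, which encodes the activin antagonist follistatin, fell from 135 and 139 CPM to 13.8 and 27.1 CPM (-2.75 ± 0.41, limma adjusted p = 8.1e-04). Tgfb1 and Tgfb3 had higher values with TGFβ, at 27.6 and 32.8 against 12.03 and 19.7 CPM and at 76.6 and 111 against 20.6 and 44.6 CPM, but neither was called (limma adjusted p = 0.24 and 0.078). Tgfb3 was called with the replicate block (adjusted p = 0.0060) and with the GC trend removed. The receptor genes Tgfbr1 and Tgfbr2 were at 34.4 to 75.6 and 160 to 232 CPM and were not called. Nrep, a neuronal protein known to bind latent TGFβ peptides, was the member called higher, with 2.69 and 6.18 CPM rising to 25.8 and 26.9 CPM, below the 43.9 and 109 CPM of 3-day untreated cells.

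Several collagens and enzymes that modify them rose. The list of 33 collagens and collagen-modifying enzymes also holds other matrix genes such as Fbn1 and Fbln5. Of its 26 members tested, 10 were called higher, 38.5% of them beside 3.37% of all tested genes, and none lower. The median log2 difference was 1.00. The count was 12 higher and 1 lower with the GC trend removed and 6 to 8 higher with a library left out, 6 of them without untreated replicate 1 and 6 without treated replicate 2. The fibrillar Col5a2 went from 0.566 and 1.67 CPM to 11.1 and 19.7 CPM, Col7a1 of anchoring fibrils from 2.48 and 3.51 CPM to 26.1 and 29.0 CPM, and the short-chain Col8a1 from 11.04 and 12.03 CPM to 81.7 and 87.6 CPM. All 3 stood above the 4 untreated libraries, although the Col8a1 call was lost when any one library was left out. Loxl3, a lysyl oxidase that cross-links collagen, rose from 10.0 and 21.1 CPM to 137 and 230 CPM (3.52, limma adjusted p = 3.0e-04). Col1a1 reached only 5.71 and 8.35 CPM, from 0.920 and 0.965 CPM, and its partner chain Col1a2 was at 0.0388 CPM or less in each library. The other members called higher were Col12a1, P4ha2, Plod1, Fbn1 and Fbln5. Of these, Fbn1 and Fbln5 are neither collagens nor enzymes that modify them, and the values of Fbln5 overlapped with the 3-day untreated cells.

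Matricellular proteins of the mesenchymal list rose with them. Fn1, fibronectin, was the most abundant of these transcripts and went from 5409 and 5253 CPM to 32585 and 27751 CPM (2.50 ± 0.66, limma adjusted p = 0.033). 3-day untreated cells had 2064 and 946 CPM. The Fn1 call was not made by edgeR (adjusted p = 0.0504) and was lost with any library left out. Tnc, tenascin C, went from 595 and 493 CPM to 4362 and 5121 CPM (3.123, limma adjusted p = 2.7e-05), Postn, periostin, from 7.57 and 18.6 CPM to 232 and 209 CPM, and Sparc from 28.5 and 50.2 CPM to 181 and 283 CPM. The Tnc and Postn values with TGFβ were above every untreated library, whereas the Sparc values overlapped with the 129 and 201 CPM of 3-day untreated cells. The promoter of Tnc is shown because this gene combined a large shift with a small spread. It lies on the minus strand at chr4:64046887-64047186 (GRCm38.p6, RefSeq), covers 250 bases before and 50 after the annotated start, and holds 2 matches to the Smad-binding letters CAGACA on either strand, which are in capitals.
Tnc: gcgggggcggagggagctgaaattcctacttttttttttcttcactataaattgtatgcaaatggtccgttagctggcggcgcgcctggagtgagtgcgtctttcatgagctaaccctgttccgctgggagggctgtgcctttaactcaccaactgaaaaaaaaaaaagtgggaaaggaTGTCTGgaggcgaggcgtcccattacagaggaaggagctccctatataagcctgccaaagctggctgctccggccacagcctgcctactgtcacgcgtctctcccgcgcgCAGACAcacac
Such a match occurred in 1927 of the 10188 tested genes with a promoter in the RefSeq table, 18.9%, so these letters are common, and a match is not a binding site. No share was computed over the called genes, since only 73.7% of the higher and 78.1% of the lower ones had a promoter there.

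Of 28 proteases, inhibitors and related genes tested, 6 were called higher and 1 lower, beside 3.37% and 1.20% of all tested genes, and the median log2 difference was 0.21. Without treated replicate 2 there were 3 called higher. Mmp9, gelatinase B, was at 0.142 and 0.289 CPM in untreated cells and at 31.0 and 30.1 CPM with TGFβ (4.70 ± 0.68, limma adjusted p = 5.4e-04). Mmp12, macrophage elastase, went from 6.08 and 2.86 CPM to 173 and 140 CPM (4.91 ± 0.60, limma adjusted p = 1.6e-04). The calls of Mmp9 and Mmp12 held in every alternative, and their treated values were above all 4 untreated libraries. Adam12, a membrane metalloprotease, went from 79.8 and 53.5 CPM to 432 and 366 CPM, and Adamts4, an aggrecanase, from 17.8 and 26.9 CPM to 62.9 and 89.6 CPM. Mmp11 went from 0.814 and 0.740 CPM to 4.45 and 3.65 CPM. Adam8 was the member called lower, from 39.7 and 44.5 CPM to 6.90 and 14.3 CPM. Mmp13, collagenase 3, was at 628 and 154 CPM without and 330 and 232 CPM with TGFβ and overlapped, and Mmp2, at 3.61 to 6.83 CPM, and Plau, at 6.43 to 23.9 CPM, were not called either, although Plau was called with the replicate block (1.19, adjusted p = 0.017).

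Of 16 integrin subunits tested, 1 was called, 6.25% of them, near the 4.58% of all tested genes called either way. Itgb3, the β3 subunit that pairs in the vitronectin receptor, rose from 2.69 and 5.21 CPM to 55.5 and 77.0 CPM (3.79 ± 0.53, limma adjusted p = 4.2e-04), against 17.4 and 25.5 CPM in 3-day untreated cells. Itga5, the α5 chain of the fibronectin receptor, was at 27.2 and 26.9 CPM without and 34.8 and 47.1 CPM with TGFβ (0.57, limma adjusted p = 0.17). Itgb6, a subunit of the receptor that activates latent TGFβ, was at 4.25 to 6.60 CPM and was not called.

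Of the 15 mesenchymal markers tested, out of 22 listed, 6 were called higher, namely Postn, Tnc, Sparc, Fn1, Vim and Cdh2, and none lower, beside 3.37% higher over all tested genes. There was 1 called higher without untreated replicate 1, 1 without treated replicate 2 and 3 without treated replicate 1. Vim, the intermediate filament vimentin, went from 18.7 and 27.7 CPM to 94.7 and 175 CPM (2.45, limma adjusted p = 0.016), but 3-day untreated cells had 158 and 548 CPM. Cdh2, N-cadherin, went from 32.7 and 27.3 CPM to 62.4 and 71.1 CPM (1.13 ± 0.27, limma adjusted p = 0.021), above all 4 untreated libraries, although the call was lost with any library left out. Acta2 and Tagln, smooth muscle genes often read as signs of EMT, were too low to be tested, Acta2 being at 0.148 CPM or less. Among 19 contractile and cytoskeletal genes tested, Lmcd1, Csrp2 and Mylk were called higher, the highest of them at 9.40 CPM, and none lower. Without untreated replicate 1 none of the 19 was called and without treated replicate 2 there was 1, and the Mylk values overlapped with the 5.60 and 12.1 CPM of 3-day untreated cells.

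The transcription factors that drive EMT showed no call among the 12 tested, and their median log2 difference of 0.04 was that of all genes. Snai1 was at 5.41 and 8.11 CPM without and 10.3 and 16.5 CPM with TGFβ (0.88, limma adjusted p = 0.42), and 3-day untreated cells spanned these values with 6.48 and 23.0 CPM. Zeb1 was at 1.73 and 1.42 against 2.71 and 2.33 CPM (0.45), and its response was smaller than the 3.43 of fl/fl cells, with a log2 difference of -2.98 that was called (limma adjusted p = 0.033). Snai2, Twist1 and Zeb2 had treated values that overlapped with the untreated ones.

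A few epithelial genes fell. Of 34 adhesion, junction and polarity genes tested, 2 were called lower and 1 higher, beside 1.20% and 3.37% of all tested genes. Their median log2 difference was -0.04. Cldn1, a tight junction claudin, fell from 22.8 and 57.8 CPM to 1.63 and 5.13 CPM (-3.22 ± 0.54, limma adjusted p = 0.0019) and lay far below all 4 untreated libraries. Ppl, the desmosomal protein periplakin, fell from 39.7 and 65.4 CPM to 10.9 and 18.8 CPM (-1.76, limma adjusted p = 0.0076). Pkp1, another desmosomal protein, rose from 137 and 249 CPM to 431 and 573 CPM, values also seen in 3-day untreated cells. Cdh1, E-cadherin, was at 823 and 871 CPM without and 707 and 875 CPM with TGFβ (-0.11 ± 0.25, limma adjusted p = 0.88), so its libraries overlapped. Ocln, occludin, was at 70.9 and 70.6 against 35.1 and 35.2 CPM, a log2 difference of -0.99 that missed the size threshold. Cldn3 and Cldn4 overlapped between the groups.

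Of 14 regulators of the epithelial state, 2 were called lower and none higher, and none was called without untreated replicate 1 or without treated replicate 1. Klf5 fell from 59.1 and 46.2 CPM to 13.0 and 16.6 CPM (-1.76, limma adjusted p = 0.0060), although 3-day untreated cells had 24.8 and 14.1 CPM. Elf3, an epithelial Ets factor, fell from 31.3 and 26.8 CPM to 6.98 and 10.6 CPM (-1.64, limma adjusted p = 0.047) and lost its call when any library was left out. Ovol1, which opposes EMT factors, was at 20.2 and 19.8 against 6.38 and 7.49 CPM but did not pass (-1.40, limma adjusted p = 0.059). With the GC trend removed 4 members were called lower, Ovol1 among them, and Ovol1 was also called with the replicate block (adjusted p = 0.0097). Grhl2 and the splicing factor Esrp1, both guardians of the epithelial state, were at 133 to 147 and 556 to 626 CPM in the 4 libraries and were not called, and Ovol2 was at 2.86 to 5.40 CPM. None of 15 keratins tested was called, including Krt8, at 182 to 351 CPM, and Krt14, at 172 to 403 CPM.

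**Figure D3:**
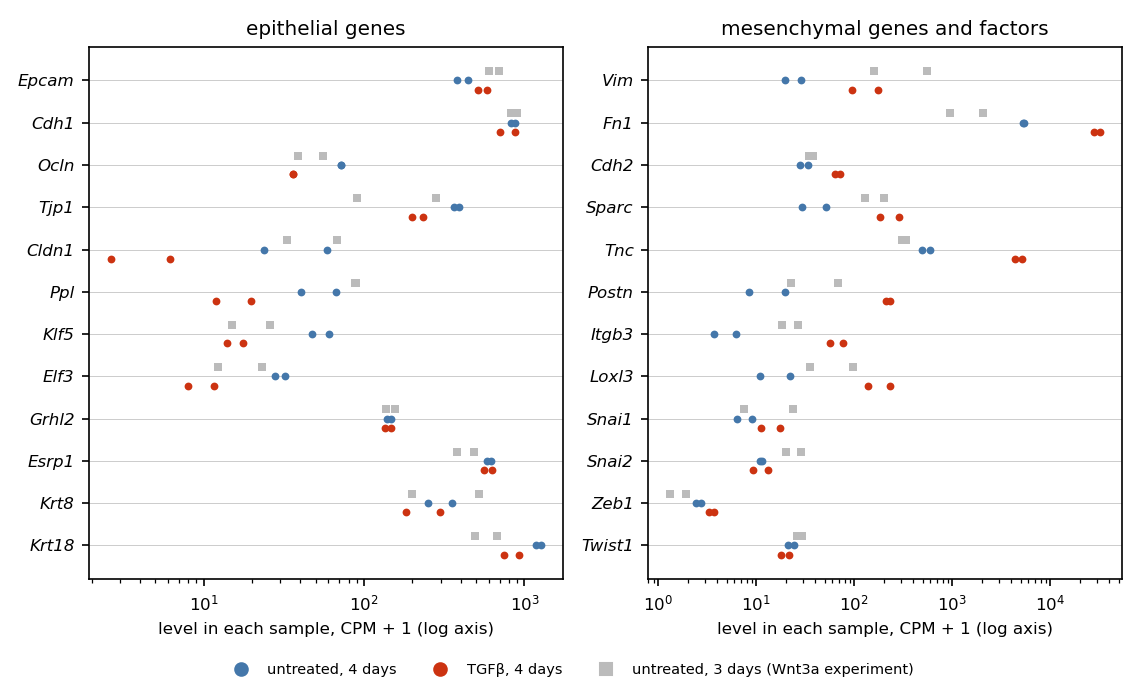
Levels of 12 epithelial genes (left) and 12 mesenchymal genes and EMT factors (right) in single libraries of D164A/fl cells, on a log axis of CPM + 1. Blue points are untreated and red points TGFβ-treated cells at 4 days, and grey squares untreated cells of the 3-day experiment, 2 libraries each. Cldn1, Ppl and Elf3 lie to the left of all untreated libraries and Fn1, Tnc and Postn to the right, while Cdh1, Grhl2 and Esrp1 overlap.

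The genes closest to the engineered protein gave no call. Ctnnb1, β-catenin itself, was at 612 and 679 CPM in untreated and 874 and 892 CPM in treated cells (0.45, limma adjusted p = 0.20), and these counts do not separate the D164A from the floxed allele. Bcl9 was at 29.7 and 40.02 against 57.7 and 57.3 CPM and Bcl9l at 25.8 and 49.3 against 49.6 and 65.7 CPM, and neither was called. None of the 16 members of the β-catenin complex tested passed.

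Among 21 Wnt target and feedback genes tested, 3 were called higher and none lower, at a median of 0.18, with 1 called higher without untreated replicate 1. Ccn4 (WISP1), a matricellular Wnt target, rose from 2.30 and 2.12 CPM to 79.4 and 45.0 CPM (4.24 ± 0.59, limma adjusted p = 4.2e-04) and held in every alternative. Nkd2, a Dishevelled-binding inhibitor of the pathway, rose from 45.6 and 86.9 CPM to 252 and 405 CPM, with 260 and 428 CPM in 3-day untreated cells. Lef1, a nuclear partner of β-catenin, was very low, at 0.106 and 0.193 CPM rising to 1.52 and 1.48 CPM, and was not called with the GC trend removed or with any one library left out. Axin2, the general feedback gene of canonical Wnt signaling, was at 0.142 to 0.544 CPM and was not called. Ccnd1 was at 1428 and 1624 against 1319 and 1783 CPM and Myc at 517 and 468 against 287 and 290 CPM (-0.77, limma adjusted p = 0.39). Of 21 Wnt ligands, receptors and secreted inhibitors tested, only Wnt9a was called, 4.76% of them, near the 4.58% of all tested genes called either way. Wnt9a went from 6.72 and 7.49 CPM to 18.4 and 21.6 CPM, a call lost with any one library left out. Wnt11 was at 2.65 and 0.804 against 3.30 and 3.61 CPM.

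Genes that fell included cytokines and interferon-inducible genes. The largest decrease was that of Tslp, an epithelial cytokine that activates dendritic cells, from 583 and 309 CPM to 13.1 and 18.8 CPM (-4.67 ± 0.90, limma adjusted p = 0.0052). The 3-day untreated libraries were far apart, with 52.7 and 1.91 CPM, so that the treated values were not outside the whole range of untreated cells. Of 32 chemokines, interleukins and growth factors tested, 5 were called lower and 3 higher, beside 1.20% and 3.37% of all tested genes, at a median of -0.29. With a library left out 2 or 3 were called lower and 1 or 2 higher. Cxcl5, a neutrophil chemokine, fell from 828 and 569 CPM to 44.8 and 61.1 CPM (-3.69 ± 0.58, limma adjusted p = 0.0011), below all 4 untreated libraries and in every alternative. Its relative Cxcl1 fell from 759 and 508 CPM to 78.0 and 195 CPM, overlapping with the 479 and 112 CPM of 3-day untreated cells, and of the 4 fits with a library left out only the one without treated replicate 2 kept its call. The T cell chemokines Ccl5 and Cxcl10 fell from 9.09 and 11.7 CPM to 2.12 and 2.02 CPM and from 8.56 and 23.1 CPM to 3.117 and 4.81 CPM. Il1rn, the interleukin 1 receptor antagonist, was the fifth. Cxcl12, the ligand of CXCR4, went the other way, from 0.849 and 0.740 CPM to 8.13 and 8.19 CPM (2.35, limma adjusted p = 1.8e-04), as did the platelet-derived growth factors Pdgfb, from 57.5 and 59.3 CPM to 161 and 230 CPM, and Pdgfa, from 23.6 and 27.4 CPM to 56.6 and 67.5 CPM. Pdgfa was not called with the GC trend removed, and Pdgfb was not called by edgeR (adjusted p = 0.057) or with any one library left out.

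Of 32 interferon-stimulated genes, all tested, 6 were called lower, 18.8% of them beside 1.20% of all tested genes, and none higher, and the median log2 difference was -1.15, with 2 members above 0. With the GC trend removed 7 were called lower. The count rested on single libraries: it was 7 without untreated replicate 1, 0 without untreated replicate 2, 1 without treated replicate 1 and 3 without treated replicate 2. Rsad2, the antiviral protein viperin, fell from 27.7 and 76.1 CPM to 5.08 and 5.67 CPM (-2.89 ± 0.55, limma adjusted p = 0.0046). Oasl1 fell from 27.1 and 66.6 CPM to 9.91 and 17.5 CPM, and the RNA sensor genes Ddx58 and Ifih1 from 298 and 380 CPM to 124 and 188 CPM and from 44.2 and 66.7 CPM to 11.4 and 12.3 CPM. Mx2, an antiviral GTPase, fell from 8.74 and 25.8 CPM to 1.11 and 3.49 CPM and Ifit3 from 1.70 and 5.63 CPM to 0.223 and 0.777 CPM. Of these 6 genes only Oasl1 was below all 4 untreated libraries: the 3-day untreated cells had 19.98 and 4.54 CPM of Rsad2 and 34.2 and 9.80 CPM of Ifih1. The calls of Ifih1 and Mx2 were not made by edgeR (adjusted p = 0.069 and 0.076), and that of Ifih1 was lost with any one library left out. In fl/fl cells 1 of the 32 genes was called lower, beside 3.44% of all tested genes there. In D164A/- cells none was, beside 1.55%. No member passed the test of the difference in response against either genotype.

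Promoters of a pair of the interferon-stimulated genes called lower are shown because this family shares a known promoter element. An interferon-stimulated response element was searched as GAAANNGAA on both strands in the 300-base RefSeq windows, and overlapping matches counted as 1 gene. It was present in 13 of the 26 list members with a promoter, against 859 of 10188 tested genes, 8.43%, as a description of these windows only. Rsad2 lies on the minus strand at chr12:26456403-26456702 with 1 match and Ifit3 on the plus strand at chr19:34583279-34583578 with 3, in capitals, both in GRCm38.p6.
Rsad2: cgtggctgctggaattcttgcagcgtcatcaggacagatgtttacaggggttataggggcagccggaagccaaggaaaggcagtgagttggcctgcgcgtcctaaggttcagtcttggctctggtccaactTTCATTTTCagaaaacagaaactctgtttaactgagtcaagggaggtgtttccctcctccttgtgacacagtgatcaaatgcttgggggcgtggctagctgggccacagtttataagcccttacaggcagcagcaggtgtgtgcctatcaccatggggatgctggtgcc
Ifit3: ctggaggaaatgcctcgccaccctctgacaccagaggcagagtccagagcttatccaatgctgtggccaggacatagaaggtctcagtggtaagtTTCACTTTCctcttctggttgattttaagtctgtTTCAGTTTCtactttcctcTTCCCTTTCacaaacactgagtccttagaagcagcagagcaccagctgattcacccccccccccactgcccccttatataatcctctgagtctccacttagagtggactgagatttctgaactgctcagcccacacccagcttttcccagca
Serpinb2, a serine protease inhibitor, was among the 12 largest decreases, with 41.9 and 19.7 CPM falling to 2.60 and 3.03 CPM (-2.97, limma adjusted p = 0.032). This call was lost when any one library was left out, and 3-day untreated cells had 2.13 and 0.577 CPM. Its promoter on the plus strand at chr1:107511173-107511472 holds 1 match to the AP-1 letters TGANTCA, in capitals, which 688 of 10188 tested genes had, 6.75%.
Serpinb2: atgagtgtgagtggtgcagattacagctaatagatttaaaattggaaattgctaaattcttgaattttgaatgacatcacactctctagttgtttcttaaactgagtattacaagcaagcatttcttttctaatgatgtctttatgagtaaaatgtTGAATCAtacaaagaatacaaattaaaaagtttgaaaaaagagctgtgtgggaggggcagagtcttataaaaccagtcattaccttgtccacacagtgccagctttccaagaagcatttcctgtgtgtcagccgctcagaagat

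Further large decreases were those of Kcnab1, a potassium channel subunit, from 22.2 and 11.7 CPM to 1.26 and 0.971 CPM, Tnfsf15, a cytokine of the TNF family, from 13.5 and 7.66 CPM to 0.742 and 0.738 CPM, and Ankrd22, from 151 and 90.9 CPM to 14.8 and 18.0 CPM. These 3 stayed called in every alternative, but the 3-day untreated cells had 1.92 and 0.721 CPM of Tnfsf15, which spans its treated values. Slc28a3, a nucleoside transporter, fell from 14.5 and 20.6 CPM to 1.45 and 2.33 CPM (-2.68 ± 0.71, limma adjusted p = 0.034), a call not made by edgeR and lost with any one library left out.

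Of 39 cell cycle and replication genes, 1 was called higher and 1 lower, the inhibitor genes Cdkn2b and Cdkn1a. These are 5.13% of the list, near the 4.58% of all tested genes called either way, while the median log2 difference was -0.61 and 8 of the 39 members were above 0. Mki67, the proliferation marker, was at 126 and 192 CPM without and 44.3 and 36.2 CPM with TGFβ (-1.93 ± 0.95, limma adjusted p = 0.27), and was called lower with the replicate block (adjusted p = 0.0034). With the GC trend removed 7 members were called lower. Of 28 cholesterol and fatty acid synthesis genes tested, 24 had values above 0, at a median of 0.53, and 2 passed: the desaturases Scd1, from 311 and 468 CPM to 1453 and 1594 CPM, and Scd2, from 226 and 363 CPM to 1042 and 1124 CPM. The 3-day untreated cells had 2658 and 3476 CPM of Scd1, above the treated cells, and 970 and 1929 CPM of Scd2, which spans them. Neither was called without untreated replicate 1, treated replicate 1 or treated replicate 2. None of 22 glycolysis and hypoxia genes and none of 21 chaperone and ER stress genes was called, and of 18 YAP/TEAD targets only Ccn2 was.

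**Figure D4:**
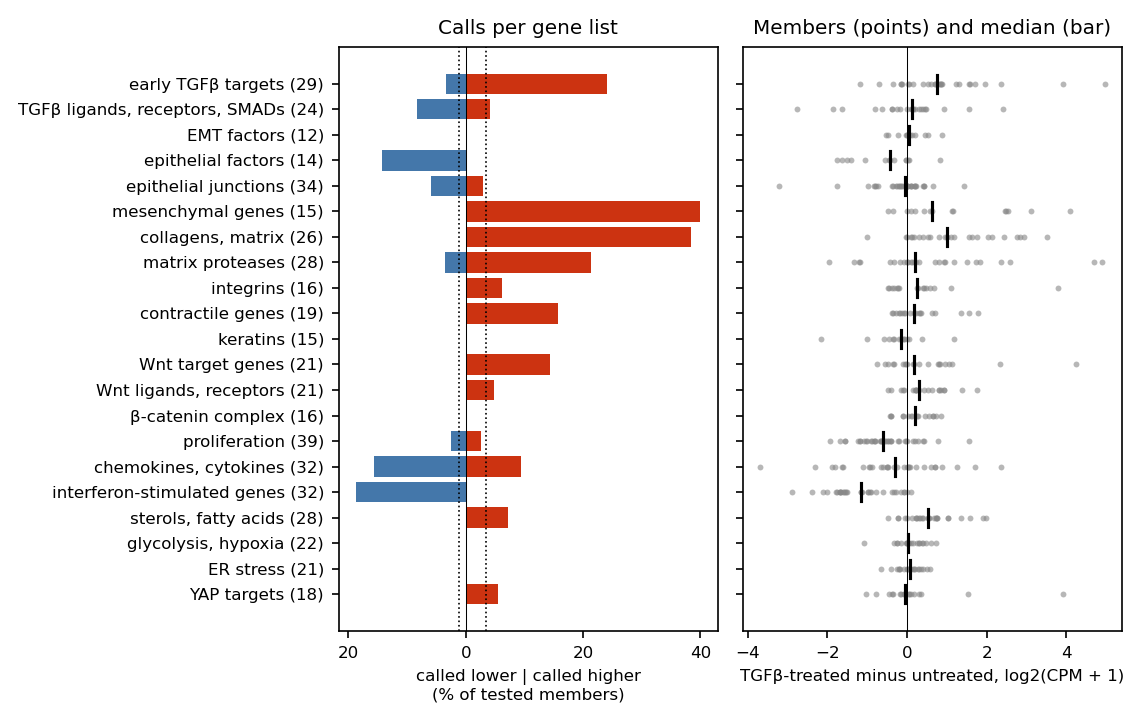
Gene lists in the D164A/fl response, with the number of tested members in brackets. The left panel gives the share of members called higher (red, to the right) and lower (blue, to the left), with dotted lines at the 3.37% and 1.20% of all tested genes, and the right panel each member's log2 difference as a point with the list's median as a bar. Mesenchymal genes and the list of collagens and matrix genes have the longest red bars and interferon-stimulated genes the longest blue one.

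A gene list of the study, of genes regulated by TGFβ and affected in mutants, was chosen on these samples and is not independent evidence of a direction. It was used as listed, with 302 symbols, a length that differs from the one in the study's text. Of the 294 tested, 64 were called higher and 10 lower in D164A/fl cells at a median of 0.42, with 33 and 5 without untreated replicate 1, and Klk10, a secreted kallikrein, was among the lower ones, from 9.87 and 13.3 CPM to 0.594 and 1.48 CPM. The same list had 141 higher and 54 lower genes in fl/fl cells, beside 4.06% and 3.44% of all tested genes there. In D164A/- cells it had 86 and 36, beside 3.43% and 1.55%.

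To ask how the response of D164A/fl cells, with 1 floxed β-catenin allele, differed from that of cells with floxed alleles only, the difference between the responses was tested in the same fit. The D164A/fl response was the more positive in 368 genes, 2.86% of those tested, and the more negative in 221, 1.72%, with 831 and 494 under the replicate block. By itself the fl/fl response had 522 genes called higher, 4.06%, and 443 lower, 3.44%. Of the 434 genes higher in D164A/fl cells, 152 were also higher in fl/fl cells, 35.02% of the former and 29.1% of the latter, and 20 were lower there. Of the 155 lower genes 24 were also lower in fl/fl cells, 15.5% and 5.42% of the respective lists. Of the 368 more positive genes, 198 were called lower in fl/fl and 108 called higher in D164A/fl cells, and of the 221 more negative ones 182 were called higher in fl/fl and 34 called lower in D164A/fl cells.

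Several genes that rose in D164A/fl cells had lower values with TGFβ in fl/fl cells. Foxj1 rose in D164A/fl cells, as given above, and was at 315 and 291 CPM without and 92.0 and 124 CPM with TGFβ in fl/fl cells (difference in response 5.34, limma adjusted p = 0.0012). Scd1 was at 1318 and 1651 CPM in untreated and 322 and 446 CPM in treated fl/fl cells, and the difference in response was 3.95 (limma adjusted p = 8.6e-04). Nkd2 was at 163.5 and 121 against 38.1 and 36.2 CPM in fl/fl cells (difference 4.22, limma adjusted p = 0.0032). Ltbp2 was not lower with TGFβ in fl/fl cells, with 278 and 217 CPM in untreated and 346 and 444 CPM in treated ones. It was not called there, and the difference in response was 4.29 (limma adjusted p = 4.4e-05). The 4-day untreated levels differed too: Foxj1, Scd1, Nkd2 and Ltbp2 were lower in untreated D164A/fl than in untreated fl/fl cells in both libraries. The 3-day untreated D164A/fl cells had 2658 and 3476 CPM of Scd1, 260 and 428 CPM of Nkd2 and 266 and 374 CPM of Ltbp2. Of these genes only Foxj1, at 28.5 and 74.2 CPM there, stayed below the 4-day untreated fl/fl values in both libraries. For the others the order depended on the untreated pair used.

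Other genes responded more in fl/fl cells. Itga5 was at 53.8 and 62.1 CPM without and 526 and 777 CPM with TGFβ in fl/fl cells, and the response of D164A/fl cells was smaller by a log2 difference of -2.88 ± 0.33 (limma adjusted p = 6.3e-05). Itgb3 reached 462 and 452 CPM in treated fl/fl cells, from 3.42 and 1.76 CPM, against the 55.5 and 77.0 CPM given above (difference -3.24, limma adjusted p = 0.018). The Tnc response was smaller by -1.58 (limma adjusted p = 0.047). For Mmp9 the difference of -3.38 did not pass. Of the 34 epithelial junction genes tested, 11 were called lower in fl/fl and 2 in D164A/fl cells, beside 3.44% and 1.20% of all tested genes. The test of the difference passed for 2, both more positive in D164A/fl cells, beside 2.86% of all tested genes. These were Marveld3 (1.98, limma adjusted p = 0.0058), a tight junction protein, and Perp (1.18, limma adjusted p = 0.0056), a desmosomal one. Both were named after their values were seen. The Cdh1 response in fl/fl cells was -1.22 against -0.11 in D164A/fl cells, but the difference between them did not pass.

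Against D164A/- cells, in which the floxed allele had been deleted, the test of the difference passed as follows: the response of D164A/fl cells was the more positive in 69 genes, 0.536% of those tested, and the more negative in 55, 0.427%, with 276 and 275 under the replicate block and 8 and 9 by edgeR. The D164A/- response had 441 genes called higher, 3.43%, and 200 lower, 1.55%. Of the 434 genes higher in D164A/fl cells 187 were also higher in D164A/- cells, 43.1% and 42.4% of the respective lists, and 2 were lower there. Of the 155 lower genes 23 were shared, 14.8% and 11.5% of the lists. In all 3 genotypes 87 genes were called higher and 9 lower, among the former Smad7, Ccn2, Ccn4, Mmp9, Mmp12, Tnc and Fn1 and among the latter Cxcl5, Cldn1 and Ankrd22. Postn rose in both D164A genotypes, to 492 and 210 CPM from 10.2 and 12.5 CPM in D164A/- cells, while in fl/fl cells it was at 12.7 and 0.262 CPM without and 0.399 and 0.441 CPM with TGFβ (difference in response 5.65, limma adjusted p = 0.0082, with the 2 untreated fl/fl libraries far apart). Ltbp2, at 156 and 229 CPM in untreated and 1316 and 1288 CPM in treated D164A/- cells, responded more in D164A/fl cells by 2.19 (limma adjusted p = 0.034). Its treated D164A/fl level was 1493 and 1551 CPM and its untreated one 37.3 and 60.9 CPM. The 3-day untreated D164A/fl cells had 266 and 374 CPM of Ltbp2. Cdh2 and Cxcl12 responded less in D164A/fl than in D164A/- cells, by -2.23 and -2.44. By edgeR only 8 genes were more positive and 9 more negative in this comparison.

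**Figure D5:**
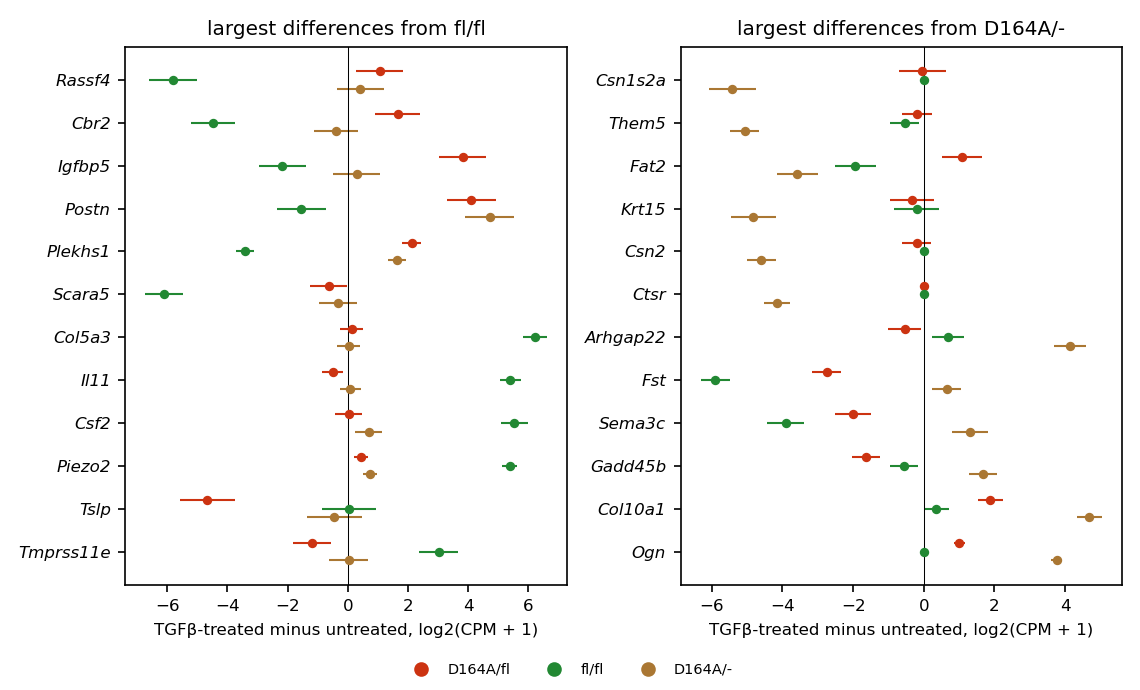
TGFβ responses of the genes with the largest called differences between D164A/fl and fl/fl cells (left) and between D164A/fl and D164A/- cells (right), ordered within each sign. Points are treated minus untreated differences in log2(CPM + 1) with bars of 1 SE from the limma fit (2 libraries a group), in red for D164A/fl, green for fl/fl and brown for D164A/- cells. In several rows, such as Col5a3 and Csn2, the D164A/fl point is near 0 and the gene is at or near 0 CPM in D164A/fl cells.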

How the data were processed

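Poly(A) RNA was sequenced as stranded single-end libraries, on a NextSeq 500 per the labels, while the study's methods also describe runs on a NovaSeq instrument without saying which samples they hold. Per the labels and the study's methods, reads were mapped to mm10 with STAR, keeping unique hits, counted on RefSeq genes with qCount of QuasR and normalized with edgeR. The deposited signal is the authors' CPM per gene for 20314 genes, labelled by Entrez number, of which 20261 matched a RefSeq symbol. The columns sum to less or more than a true CPM column would, since the authors' scaling factors of 0.809 to 1.14 are in them, so the unit is a scaled signal where the design had assumed plain CPM, and the test was kept. In every library 100% of values were whole multiples of 1 read within 0.001, so the reads were recovered, at 22396315 to 33681869 per library over the 56 libraries. Libraries of other genotypes enter only the alternative fit over all 56.

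The main test was limma 3.58.1 (R 4.3.3) with a trend on log2(CPM + 1), fitted over the 24 libraries of fl/fl, D164A/fl and D164A/- cells, which share one estimate of the spread. Genes needed 1 CPM in 2 libraries, and p-values were adjusted by Benjamini-Hochberg over all 12868 of them. Calls needed an adjusted p of 0.05 and a log2 difference of 1. Responses of 2 genotypes were compared as a difference of differences. edgeR 4.0.16 on the recovered reads, a pseudocount of 0.1, no filter, median-of-ratios rescaling, other sets of samples, removal of the trend with GC content, a replicate block and leaving out each replicate were alternatives. The fit was run on simulated reads with known folds and independent libraries. These lacked the GC trend and the shared deviations of same-numbered replicates seen in the real ones, so the run cannot show how calls behave under them. The setting of treated values against untreated cells of both experiments is a description without a test.

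The text names the 12 largest called increases and decreases whose groups do not overlap and whose higher mean is at least 10 CPM, the 4 largest called each way per gene list, 47 fixed genes, and the 6 largest called differences each way between responses. Genes beyond this rule are a list's few other called members. The members and the 21 pathway, 7 marker and 1 study list were chosen with earlier results of these data known. Floors cover counting error only. The values after ± and the bars in the plot of responses by genotype are SEs of the limma fit. They reflect the spread between libraries and not counting error alone. Promoter windows and coordinates came from RefSeq (GRCm38.p6, the build of mm10). One of the fixed genes is not reported here.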

Additional observations from a re-analysis of the deposited data

Results flagged for a closer look

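The responses of the genes below differed between D164A/fl and another genotype by the limma interaction test, and each value is the D164A/fl response minus the other one on the log2(CPM + 1) scale. None of them was followed up, and cell line and genotype cannot be told apart.

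Against fl/fl cells the D164A/fl response was the more positive for Rassf4 (6.87), Cbr2 (6.14), Igfbp5 (5.99), Postn (5.65), Plekhs1 (5.54) and Scara5 (5.46). In fl/fl cells Rassf4, Cbr2, Plekhs1 and Scara5 had lower values with TGFβ in both libraries, with Scara5 at 197 and 47.1 CPM in untreated and 0.665 and 0.221 CPM in treated fl/fl cells and at 33.6 and 50.2 against 21.4 and 31.7 CPM in D164A/fl cells. The response was the more negative for Col5a3 (-6.09), Il11 (-5.91), Csf2 (-5.50), Piezo2 (-4.93), Tslp (-4.70) and Tmprss11e (-4.21). The cytokine Il11, a known TGFβ target, was at 2.94 and 3.41 CPM in untreated and 116 and 264 CPM in treated fl/fl cells and at 2.87 and 1.54 against 1.11 and 1.32 CPM in D164A/fl cells. Tslp was at 8.70 CPM or less in all 4 fl/fl libraries, and its call was lost with a pseudocount of 0.1, without the filter, by edgeR and with any library left out.

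Against D164A/- cells it was the more positive for Csn1s2a (5.37), Them5 (4.87), Fat2 (4.65), Krt15 (4.49), Csn2 (4.42) and Ctsr (4.15). The milk casein genes Csn1s2a and Csn2 were at 97.4 and 55.3 CPM and at 32.8 and 18.9 CPM in untreated D164A/- cells and at 0.354 CPM or less in the 4 D164A/fl libraries of this experiment. It was the more negative for Arhgap22 (-4.68), Fst (-3.40), Sema3c (-3.32), Gadd45b (-3.30), Col10a1 (-2.80) and Ogn (-2.76). The Fst response differed from fl/fl cells in the other direction, by 3.15. Sema3c, a secreted semaphorin whose call was lost in 5 of 9 other settings and with any library left out, was at 261 and 196 CPM without and 65.5 and 47.3 CPM with TGFβ in D164A/fl cells and at 71.0 and 67.7 against 181 and 167 CPM in D164A/- cells.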

How the results depend on the processing

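The D164A/fl response, with 434 genes higher and 155 lower, had 700 and 487 with only the 4 libraries compared, 696 and 481 with a replicate block, 519 and 414 with the replicate block and the GC trend removed, 284 lower with the GC trend removed, and 414 and 129 by edgeR on the recovered reads. Leaving out each replicate gave 144 to 361 higher and 65 to 105 lower genes, the remaining library being assumed to vary like the other groups. The difference against fl/fl cells, with 368 higher and 221 lower, had 592 higher with only the compared samples, 831 and 494 with the replicate block, 808 and 637 with block and GC removal, 143 lower with a pseudocount of 0.1 and 70 lower by edgeR, and leaving out each replicate gave 150 to 299 higher and 138 to 201 lower. The difference against D164A/- cells, with 69 and 55, had 21 and 19 with a pseudocount of 0.1, 8 and 9 by edgeR, 179 and 130 with only the compared samples, 115 higher over all 56 samples, 276 and 275 with the replicate block, 318 and 420 with block and GC removal, 101 lower with GC removal, and 14 to 61 and 18 to 48 with each replicate left out. Without D164A/fl untreated replicate 1 the differences fell to 150 and 138 genes and to 14 and 19 genes, and without treated replicate 2 to 180 and 158 and to 16 and 22. Without D164A/- untreated replicate 1 the difference against those cells had 16 and 18 genes, and without their treated replicate 2 it had 20 and 31. Where such a count moved, the cause was not tested.

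Same-numbered replicates share only that number in the labels. Deviations of same-numbered treated and untreated libraries correlated at 0.59 in D164A/fl, 0.66 in fl/fl and 0.34 in D164A/- cells across genes, with 2 pairs in each genotype, a hint from the data and not from the design. With the replicate block Mki67, Ovol1, Plau, Tgfb3, Cbr2, Fat2 and Tmprss11e were called in the D164A/fl response. Of 71 named genes called in the D164A/fl response, 50 kept their call in all 9 settings with every library, 27 without each replicate and 26 in all of these, and none changed sign. The calls of Cdh2, Cdkn1a, Cdkn2b, Col8a1, Elf3, Fn1, Ifi202b, Ifih1, Lef1, Mylk, Pdgfb, Sema3c, Serpinb2, Slc28a3 and Wnt9a were lost with any one D164A/fl library left out. Without untreated replicate 1 those of Adam8, Col10a1, Col1a1, Csrp2, Cxcl1, Gadd45b, Igfbp5, Klf5, Lmcd1, Nkd2, Nrep, Ogn, Pdgfa, Pkp1, Pmepa1, Postn, Scd1, Scd2, Sparc, Tslp and Vim were lost as well, and without untreated replicate 2 those of Cxcl1, Cxcl10, Ifi203, Mx2, Oasl1, Ppl and Rsad2. Without treated replicate 1 those of Adam8, Col10a1, Cxcl1, Cxcl10, Gadd45b, Ifi203, Klf5, Mx2, Oasl1, Ogn, Pkp1, Pmepa1, Postn, Ppl, Scd1, Scd2 and Tslp were lost, and without treated replicate 2 those of Ccl5, Col1a1, Csrp2, Cxcl10, Gadd45b, Ifi203, Igfbp5, Mx2, Nkd2, Pdgfa, Pkp1, Pmepa1, Postn, Scd1, Scd2, Sparc and Vim. At the depth of the D164A/fl libraries, 3 reads were worth 0.0965 to 0.117 CPM, and levels under this cannot be told from 0.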

Other observations

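Further groups of genes were noticed among the calls and then completed from textbook membership, so that they were chosen after their values were seen and carry no test. Each count below stands beside 3.37% of all tested genes called higher and 1.20% called lower. Of 55 intraflagellar transport, BBSome and transition-zone genes of the cilium, 54 were tested, and 11 were called higher, beside 3.37% of all tested genes, and none lower in D164A/fl cells, with 44 above 0 and a median log2 difference of 0.47 against 0.04 over all tested genes. The called members included Kif27, a kinesin-like protein, from 1.88 and 1.74 CPM to 22.1 and 10.6 CPM, Dync2li1, of the retrograde motor, from 6.26 and 7.30 CPM to 18.3 and 18.2 CPM, and Tmem231, of the transition zone, from 10.6 and 11.3 CPM to 28.1 and 28.2 CPM. In these 3 the treated values lay above all 4 untreated libraries. In fl/fl cells 1 gene of the cilium list was called higher and 3 lower, beside 4.06% and 3.44% of all tested genes there. The test of the difference against fl/fl cells passed for 13, all more positive in D164A/fl cells, beside 2.86% of all tested genes. In D164A/- cells 6 of the list were called higher and none lower, beside 3.43% and 1.55% of all tested genes there, at a median of 0.36. No member passed the test of the difference between D164A/fl and D164A/- cells. With the GC trend removed 9 were called higher, and with a library left out 4 to 8, 4 of them without untreated replicate 1 and 4 without treated replicate 2.

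Of 38 lysosomal genes tested, 7 were called higher and none lower, with 36 above 0 and a median of 0.59, but 2 were called higher without untreated replicate 1, 3 without treated replicate 2 and 4 without treated replicate 1. Ctsd, the protease cathepsin D, went from 759 and 1091 CPM to 3258 and 4686 CPM, but 3-day untreated cells had 2167 and 5244 CPM. Gusb, β-glucuronidase, went from 44.5 and 50.3 CPM to 176 and 173 CPM and Glb1, β-galactosidase, from 18.6 and 28.3 CPM to 71.5 and 77.1 CPM, both above all 4 untreated libraries. Of 16 ADAMTS and ADAMTS-like genes tested, 7 were called higher and none lower, beside 3.37% and 1.20% of all tested genes. Far fewer were called without untreated replicate 1 or without treated replicate 1 or 2. Igfbp7 rose from 17.5 and 24.03 CPM to 237 and 252 CPM. With Igfbp5 it made up the 2 genes called higher among 5 IGF binding protein genes tested, of which 3 were below 0. The median log2 difference of the 5 was -0.11.

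Of 7 interferon-inducible p200 genes tested, which lie in a cluster on chromosome 1 and resemble each other closely, so that reads may be split between copies, 6 were called lower: Ifi202b, Ifi203, Ifi204, Ifi207, Ifi211 and Mndal. With a library left out 3 or 4 were. The family summed to 241 and 326 CPM in untreated and 34.9 and 44.4 CPM in treated cells, and in all 6 the treated values overlapped with the 3-day untreated range, as for Ifi203 with 13.3 and 1.55 CPM there. Of 12 AP-1 and EGR factors tested, Fosl1, Jun and Egr2 were called lower, Fosl1 from 471 and 370 CPM to 84.5 and 112 CPM, and none higher. None of the 12 was called without untreated replicate 1 or treated replicate 1, and 1 without untreated replicate 2, while 3-day untreated cells had 48.5 and 19.5 CPM of Fosl1.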
